A study of Mus musculus with 6 samples.

Results

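Csn3, Chia1, Dapl1 and Stc1 were examined as genes outside the interferon response with some of the largest increases in the vestibular epithelium after exposure to IDPN, an ototoxic nitrile that damages vestibular hair cells, which sense head movement. They are 4 of the 52636 genes in the deposited count table. They were chosen on the IDPN against Control difference itself, so those differences are given as a description, without p-values, which are given only for other genes. All 4 entered the fit across all genes.

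RNA-seq was performed on the vestibular sensory epithelium of male 129S1/SvImJ mice, 2 to 4 months old, in 3 Control and 3 IDPN animals. The IDPN group received the compound at 30 mM in its drinking water during 8 weeks, and the Control group received water alone. Each library held the 2 utricles and 6 cristae of 1 animal, and the labels do not divide the libraries into batches. Depth was even, from 40474847 to 43566332 estimated counts in a library, and values below are normalized counts, which are estimated counts divided by the median-of-ratios size factor of the library (0.825 to 1.21). The animal codes of the Control group share a stem that no IDPN animal carries, so whatever that code stands for and the exposure cannot be told apart. In such whole-tissue RNA, more cells of a type and more RNA per cell cannot be told apart either.

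The 4 genes encode unrelated proteins, and each is best known from another tissue. Csn3 encodes kappa-casein, the milk protein that sits on the surface of the casein micelle and keeps it in solution. Chia1 encodes acidic mammalian chitinase, a secreted enzyme that cuts chitin and is known from stomach, lung and glands. Stc1 encodes stanniocalcin 1, a secreted glycoprotein first known from calcium regulation in fish, which together with its relative stanniocalcin 2 inhibits the protease PAPP-A. Dapl1 encodes a small intracellular protein related to death-associated protein, described in differentiating epithelium and in the retinal pigment epithelium.

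All 4 lie on the forward strand in the GRCm38 build. Csn3 (ENSMUSG00000001622.15) spans 87925579 to 87932665 on chromosome 5, and its longest coding transcript has 5 exons. Chia1 (ENSMUSG00000062778.12) spans 106113229 to 106132120 on chromosome 3, with 11 exons. Dapl1 (ENSMUSG00000026989.5) spans 59484653 to 59505020 on chromosome 2, with 4 exons. Stc1 (ENSMUSG00000014813.9) spans 69029238 to 69041804 on chromosome 14, with 4 exons.

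RefSeq promoter sequence (GRCm38.p6) was at hand for 2 of the 4 genes, Chia1 and Dapl1. The 250 bases before each annotated start were searched for motifs, because both genes moved in the same direction. All of them are shown for Dapl1, whereas for Chia1 only the 30 around the match are shown. GENCODE M21 starts the Chia1 gene earlier, so that the last 153 bases of the Chia1 window lie inside the gene it annotates. The 30 bases with their TATAAA are among them, and whether they lie in an exon was not examined. Both are on the forward strand, and capitals mark TATAAA, the core of a TATA box.
Chia1, chr3:106113327-106113356: gcactcaggtgtTATAAAaagccatttgag
Dapl1, chr2:59484403-59484652: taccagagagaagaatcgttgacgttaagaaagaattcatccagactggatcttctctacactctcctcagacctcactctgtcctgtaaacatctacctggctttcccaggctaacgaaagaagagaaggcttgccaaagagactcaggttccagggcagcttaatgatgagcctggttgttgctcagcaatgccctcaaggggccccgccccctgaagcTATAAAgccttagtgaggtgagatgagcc

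TATAAA began at -43 from the RefSeq start of Chia1 and at -29 from that of Dapl1. On either strand it was found in 12.4% of the 32851 promoter windows of the same length. The other motifs searched, on both strands, were TTCNNNGAA for STAT proteins (7.02% of windows), GAAA followed by another GAAA after a gap of any 2 bases, for interferon-stimulated elements (2.98%), ACGTG for hypoxia-inducible factors (16.6%) and TGANTCA for AP-1 (6.75%). None of these letters occurred in either of the 2 windows. The start of Chia1 is at 106113382 in RefSeq and at 106113229 in GENCODE, and which of them these libraries used is not known.

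Csn3 was the most abundant of the 4. Control 1, 2 and 3 held 344, 319.7 and 455 normalized counts, whereas IDPN 1, 2 and 3 held 4465, 5436 and 3306. The groups lay far apart, with the lowest IDPN library 7.27-fold above the highest Control library. Group means were 373 ± 71.8 and 4402 ± 1067 (SD, n = 3 each), an 11.8-fold ratio and a log2-Fold_Change of 3.56 (SE 0.22). The spread was narrow in both groups, with a coefficient of variation of 19.3% in Control and 24.2% in IDPN.

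Chia1 counted 177, 192 and 150.4 in the Control libraries and 996, 957 and 2041 in the IDPN libraries. IDPN 3 was the high one and IDPN 1 and 2 were close to each other. Means of 173 ± 20.9 and 1331 ± 615 (SD, n = 3 each) gave a ratio of 7.69, and the fitted log2-Fold_Change was 2.95 (SE 0.28). The relative spread was 12.1% in Control and 46.2% in IDPN. Without IDPN 3 the log2-Fold_Change was 2.50.

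Stc1 counted 132, 91.2 and 53.4 in Control and 489, 315 and 608 in IDPN. The groups did not overlap, and the lowest IDPN library was 2.38-fold above the highest Control library. Means of 92.3 ± 39.4 and 471 ± 147 (SD, n = 3 each) gave a ratio of 5.10, and the fitted log2-Fold_Change was 2.36 (SE 0.33).

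Dapl1 was the gene with the fewest counts. Its raw estimated counts were 11, 43 and 64 in Control and 199, 195 and 298 in IDPN, which normalized to 13.3, 49.6 and 56.9 against 165, 196 and 278. Control 1 stood low, and the Control libraries differed 4.27-fold among themselves where the IDPN libraries differed 1.69-fold. Means of 39.97 ± 23.3 and 213 ± 58.6 (SD, n = 3 each) gave a ratio of 5.33, and the fitted log2-Fold_Change was 2.40 (SE 0.41), or 1.99 without Control 1.

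**Figure D1:**
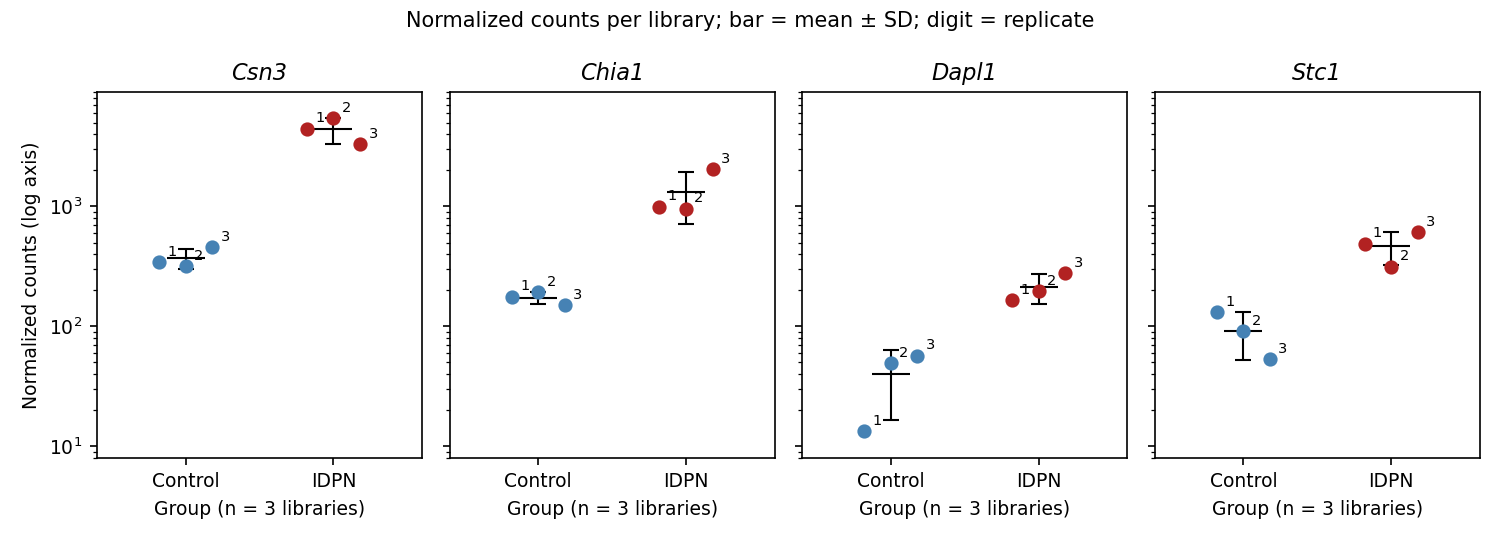
Normalized counts (y axis, log scale) of the 4 genes in each library, with Control in blue and IDPN in red. Points are libraries numbered by replicate, and bars are the mean ± SD of 3 libraries. In each panel every IDPN point lies above every Control point, and Dapl1 has a single low Control point at 13.3.

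Across all 17650 genes with an adjusted p, every IDPN library lay above every Control library for 11.1%, and below every Control library for 11.4%. The 4 genes belong to the 11.1% by the way they were chosen. Ranked by log2-Fold_Change among the 264 named genes that were called upregulated, had a mean of at least 100 normalized counts and no overlap between groups, Csn3 was 1st, Chia1 6th, Dapl1 9th and Stc1 10th. The other places down to Stc1 were held by the interferon-responsive genes Ifit3b, Usp18, Ifit3, Mx2 and Rtp4, and by the acute phase gene Itih4 (log2-Fold_Change 3.06), which is not of the interferon response and was not included in the choice. Just below Stc1 stood Anxa1 at 2.08 (SE 0.24), which encodes the anti-inflammatory protein annexin A1.

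Expressed per kilobase of the longest coding transcript, so that genes can be set side by side, Csn3 had 234 normalized counts per kb in Control (library range 200.3 to 285) and 2758 in IDPN (2071 to 3406). Chia1 went from 103 (89.4 to 114) to 792 (569 to 1214), Dapl1 from 69.8 (23.3 to 99.4) to 371 (287 to 485), and Stc1 from 22.0 (12.7 to 31.5) to 112 (75.1 to 145). The order Csn3, Chia1, Dapl1, Stc1 held for the group means in both groups. The library ranges of Chia1 and Dapl1 overlapped in Control, and otherwise neighbouring genes in this order had separate ranges in the same group, except Dapl1 and Stc1 in Control, whose ranges also overlapped. Among 21886 protein-coding genes ranked by this level, Csn3 moved from place 5493 to 785, Chia1 from 8024 to 2380, Dapl1 from 9177 to 4162 and Stc1 from 11808 to 7893.

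The genes did not share an order among the libraries. IDPN 3 was the highest library for Chia1, Dapl1 and Stc1 and the lowest IDPN library for Csn3, which was highest in IDPN 2. IDPN 2 was in turn the lowest IDPN library for Stc1 and, by little, for Chia1 (957 against 996 in IDPN 1). In Control, Stc1 was highest and Dapl1 lowest in Control 1. For comparison, the summed normalized counts of 14 interferon-responsive genes, of which 10 were called upregulated, ran from 3728 to 4695 in Control and were 8213, 17882 and 35101 in IDPN 1 to 3. Stc1 was thus higher in IDPN 1 than in IDPN 2, and Chia1 close in both, although the interferon sum was lower in IDPN 1. Csn3 was lowest of the IDPN libraries where that sum was highest. Dapl1 had the same order of IDPN libraries as the interferon sum.

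**Figure D2:**
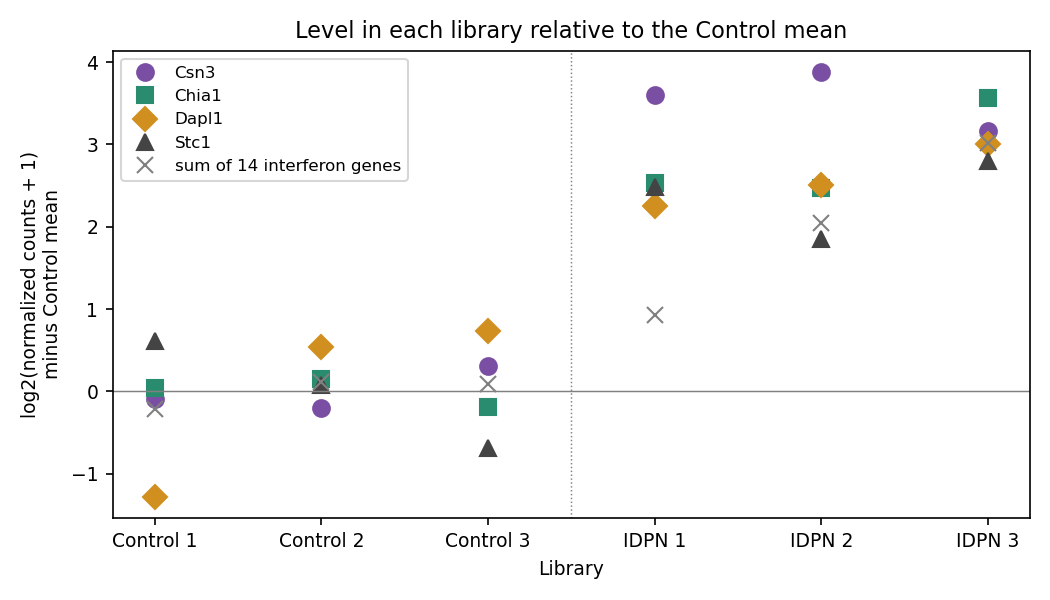
Level of each gene in each library (x axis) as log2(normalized counts + 1) minus the mean of the Control libraries (y axis), beside the sum of 14 interferon-responsive genes (crosses). Csn3 lies between 3.16 and 3.88 in the IDPN libraries with its lowest value in IDPN 3, whereas the other genes and the interferon sum are highest in IDPN 3.

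The genes nearest to each of the 4 in profile were found by the root mean square difference of these centred log2 values over the 6 libraries, among named genes with a mean of at least 100 normalized counts. The values were not scaled, so a near profile requires a rise of similar size, and the 4 genes were chosen on that size. Usp18, Itih4 and Anxa1 below also stand beside them in the ranking above. Shared control was not tested. Csn3 lay nearest to Usp18 (0.68), Chia1 (0.78) and Itih4 (0.88). Chia1 lay nearest to Usp18 (0.43), Stc1 (0.50) and Anxa1 (0.60). Stc1 lay nearest to Sostdc1 (0.43), Anxa1 (0.47) and Chia1 (0.50). Usp18 removes the ubiquitin-like modifier ISG15 from proteins, and Sostdc1 encodes a secreted antagonist of BMP and Wnt signalling. Sostdc1 counted 951, 633 and 598 in Control and 2473, 2561 and 3311 in IDPN (log2-Fold_Change 1.94, SE 0.21).

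Dapl1 had other neighbours, among them Ybx1 (0.35) and Wrnip1 (0.53), which encode a nucleic acid-binding protein and a Werner helicase-interacting protein. Both share its low value in Control 1. Ybx1 counted 418, 1469 and 2510 in Control and 4786, 5666 and 5830 in IDPN, and it was not called (log2-Fold_Change 1.89, DESeq2 adjusted p = 0.0746). Wrnip1 was not called either (DESeq2 adjusted p = 0.219).

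The relatives and pathway partners of each gene were then examined, to see whether they changed with it. A gene was called when its adjusted p (Benjamini-Hochberg over all genes tested, DESeq2 Wald test) was under 0.05 and its fold change above 1.5. Of the 17650 genes tested, 5.75% were called, 410 upregulated (2.32%) and 604 downregulated (3.42%), with a median log2-Fold_Change of 0.015. With size factors proportional to total counts, which moved the median gene by 0.26, 609 were upregulated and 214 downregulated.

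No other casein was detected beside Csn3. Csn1s1, Csn2, Csn1s2a and Csn1s2b, which encode the alpha and beta caseins made together with kappa-casein in the lactating gland, were at 0 counts in all 6 libraries, a value that allows up to 3 counts. The wider list of caseins and secretory calcium-binding phosphoproteins of teeth and bone had 14 of its 15 genes in the table, of which 7 were at 0 throughout (the 4 caseins, Ambn, Enam and Dspp). Of the 4 genes with an adjusted p, 0 were called upregulated and 1 downregulated, and their median log2-Fold_Change was -0.43. That gene was Sparcl1, which encodes a secreted matrix protein and fell from 135459 ± 31344 to 89880 ± 10128 (SD, n = 3 each, log2-Fold_Change -0.59, SE 0.19, DESeq2 adjusted p = 0.0365). It lost its call with edgeR (adjusted p = 0.248), under total-count scaling, with independent filtering off and without Control 1, Control 2, IDPN 1 or IDPN 3. Spp1, or osteopontin, was the most abundant of the list at 924770 in Control and 638890 in IDPN, and was not called (DESeq2 adjusted p = 0.0502). Odam, which lies 31405 bases before Csn3, stood at 65.3 and 52.2 (DESeq2 adjusted p = 0.797), and Dmp1, a gene of bone mineralization, at 121 and 115 (0.983).

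Lactogenic hormones switch on casein genes in mammary epithelium through the prolactin receptor and STAT5. Of the 14 genes of that pathway, 13 had an adjusted p and 0 were called by DESeq2 or edgeR, with 3 higher and 1 lower at an unadjusted DESeq2 p under 0.05. The log2-Fold_Change was positive for 11 of the 13 and negative for 2, with a median of 0.32. The prolactin receptor gene Prlr was near 0, at 0 to 4.97 normalized counts per library. Stat5a was at 552 and 692 (DESeq2 adjusted p = 0.465) and Stat5b at 1627 and 1782 (0.775). The transcription factor genes Nfib (4405 and 3587, DESeq2 adjusted p = 0.381) and Nr3c1, the glucocorticoid receptor (835 and 972, 0.695), overlapped between groups. Socs2, a feedback inhibitor that STAT5 induces, was at 3751 ± 371 and 3806 ± 364 (SD, n = 3 each, DESeq2 adjusted p = 0.972). Its relatives in the list had higher IDPN means without a call. They were Cish (85.5 and 137, DESeq2 adjusted p = 0.401), Socs1 (24.6 and 59.4, 0.187) and Socs3 (139 and 357, 0.300). IDPN 2 was the highest library for each of them. Elf5, a transcription factor of the milk-secreting cell, counted 21.8, 11.5 and 11.6 in Control and 29.8, 39.2 and 35.5 in IDPN, without overlap and without a call (DESeq2 adjusted p = 0.226). Cebpb, another transcription factor of mammary development and of inflammation, had the largest log2-Fold_Change of the list (4.01, SE 1.52), from 0, 6.93 and 25.8 to 43.0, 344 and 144, and was not called either (DESeq2 adjusted p = 0.0994). Among 12 markers of mammary and exocrine gland cells, Wap, Csn1s1, Csn2, Pip and Smr3a were at 0 in all libraries, and 0 of the 4 with an adjusted p were called by DESeq2 or edgeR (1 higher at an unadjusted DESeq2 p under 0.05). That gene was Prol1, a secreted mucin-like protein gene of glands, with 1.21, 4.62 and 0 normalized counts in Control and 5.79, 22.1 and 21.5 in IDPN (DESeq2 adjusted p = 0.0883). The list summed to 379.7 to 468 in Control and 322 to 365 in IDPN.

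No other chitinase or chitinase-like gene was called. Of 9 such genes, 4 had an adjusted p and 0 were called by DESeq2 or edgeR, with 1 lower at an unadjusted DESeq2 p under 0.05 and a median log2-Fold_Change of -0.13. Chit1, which encodes the other enzymatically active chitinase of mammals, was at 0 in all 6 libraries, as was Chil4. Chil1, which encodes a chitin-binding protein without chitinase activity, was the most abundant and stood at 2494, 2525 and 2151 in Control against 1614, 1910 and 1756 in IDPN. Every IDPN library was thus lower, as for 11.4% of all genes tested, and in the opposite direction to Chia1. The difference was not called (log2-Fold_Change -0.44, SE 0.16, DESeq2 adjusted p = 0.0737). Chid1 (1190 and 1086), a chitinase domain-containing gene, and Ctbs (515 and 469), a lysosomal chitobiase gene, had DESeq2 adjusted p of 0.808 and 0.836. Ovgp1, an oviduct member of the family, stood at 14.6 and 31.3 (DESeq2 adjusted p = 0.320).

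Chia1 is known to respond to the type 2 cytokines IL-4 and IL-13. Il4 and Il13 were at 0 in all libraries, as were their targets Retnla and Clca1. Of the 17 genes of the type 2 list, 9 had an adjusted p and 0 were called by DESeq2 or edgeR, with 1 higher at an unadjusted DESeq2 p under 0.05 and a median log2-Fold_Change of 0.15. Stat6, the transcription factor of the pathway, was at 2293 and 2604 (DESeq2 adjusted p = 0.754), and the receptor genes Il4ra at 825 and 750.1 (0.860) and Il13ra1 at 368 and 408 (0.842). Il33, an epithelial cytokine that starts type 2 responses, was at 895 and 803 (DESeq2 adjusted p = 0.738). Mrc1, a receptor of alternatively activated macrophages, was higher in every IDPN library, at 135 and 197, without a call (DESeq2 adjusted p = 0.197). Macrophages are one known source of chitinase family proteins. Of 12 macrophage markers, none was at 0, 2 were called upregulated (Lyz2 and Fcgr1) by DESeq2 and 0 by edgeR, and the list summed to 6054 to 7740 in Control and 8636 to 13176 in IDPN. The sum was highest in IDPN 2, and most of it was Lyz2 (5878, 9133 and 5825 in IDPN 1 to 3). Chia1 was close in IDPN 1 and IDPN 2 (996 and 957) and highest in IDPN 3 (2041). Most other markers of the list were also highest in IDPN 2. Fcgr1 (54.6, 27.1 and 54.1) and Cd68 (125, 97.4 and 105) were lowest there. The part of macrophages in the Chia1 difference was not tested.

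Called partners of stanniocalcin were lower after IDPN, while Stc1 was higher. Of 12 genes for stanniocalcin 2, PAPP-A and the IGF system, 9 had an adjusted p, 0 were upregulated and 2 were downregulated, with a median log2-Fold_Change of -0.09 and the same number of downregulated genes with edgeR. Pappa, which encodes the protease that releases IGF by cutting its binding proteins and that stanniocalcins inhibit, had 25, 15 and 22 counts in Control and 2, 0 and 0 in IDPN. The ratio of Control to IDPN was 36.1 (95% counting interval 9.57 to 305), and the gene was called downregulated (DESeq2 adjusted p = 0.00242). Without Control 3 it received no adjusted p. Igfbp5, an IGF-binding protein, fell from 18354 ± 1488 to 8553 ± 843 (SD, n = 3 each, log2-Fold_Change -1.10, SE 0.15, DESeq2 adjusted p = 1.24e-10), and was called in each of the 11 alternative analyses.

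Stc2, the relative of Stc1, had 3, 7 and 15 counts in Control and 0 in each IDPN library. It received no adjusted p, and its level was at least 9.70-fold lower in IDPN, taking 3 counts over the group as the floor. In contrast, Igfbp4 (7277 and 7063, DESeq2 adjusted p = 0.958), Igfbp2 (6526 and 8325, 0.306) and the receptor gene Igf1r (1311 and 1300.3, 0.987) were not called. Ucp2, a mitochondrial uncoupling protein gene that stanniocalcin 1 is known to raise, was at 6068 and 5948 (DESeq2 adjusted p = 0.977). Igfbp3 had no adjusted p, and a single library stood apart in it, IDPN 2 at 26689 against 2973 and 2504 in the other IDPN libraries.

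Stc1 is also a known target of hypoxia-inducible factors. Of 24 genes of the hypoxia response, all with an adjusted p, 1 was upregulated and 0 downregulated by both DESeq2 and edgeR, with 2 higher and 6 lower at an unadjusted DESeq2 p under 0.05, and the median log2-Fold_Change was -0.010. The upregulated gene was Adm, which encodes the secreted vasodilator peptide adrenomedullin. It counted 47.3, 60.0 and 42.7 in Control and 142, 154 and 168 in IDPN (log2-Fold_Change 1.63, SE 0.31, DESeq2 adjusted p = 1.35e-05), and was called in each of the 11 alternative analyses. The glucose transporter gene Slc2a1 (26346 and 26822, DESeq2 adjusted p = 0.979) and the glycolytic genes Ldha (0.972) and Aldoa (0.254) were not called. Ndrg1, a stress-responsive gene, was lower in every IDPN library (23962 and 15767) and was not called either (DESeq2 adjusted p = 0.122). Hif1a itself stood at 21288 ± 4558 and 14299 ± 2041 (SD, n = 3 each), with a DESeq2 adjusted p of 0.0488 and a log2-Fold_Change of -0.57 that missed the fold-change threshold.

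The relative of Dapl1 differed little. Dap, which encodes death-associated protein, was at 2318 ± 326 and 2046 ± 146 (SD, n = 3 each) and was not called (log2-Fold_Change -0.18, SE 0.17, DESeq2 adjusted p = 0.672). Of the 21 genes for Dap, its regulators and epithelial differentiation, 9 had an adjusted p, 1 was upregulated and 0 downregulated, with a median log2-Fold_Change of 0.52. The upregulated gene was Sfn, which encodes 14-3-3 sigma, with 10.9, 13.9 and 15.1 in Control and 21.5, 134 and 22.4 in IDPN. IDPN 2 carried this value, since the log2-Fold_Change was 2.14 (DESeq2 adjusted p = 0.0375) with it and 0.72 (0.771) without it, and edgeR did not call it (adjusted p = 0.170). The keratinocyte genes Krtdap, Sprr1b, Krt13, Krt14 and Dsg1a were at 0 in all libraries. Krt5, a keratin of basal epithelial cells, was at 2143 and 3264 (DESeq2 adjusted p = 0.156), Krt10, a keratin of differentiated epidermis, at 169.97 and 128 (0.450), and Mitf, a transcription factor of pigment cells, at 294 and 328 (0.812).

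Dapl1 is also known from pigment cells and T cells. Of 8 melanocyte and pigment cell markers, the retinal pigment epithelium gene Rpe65 was at 0, and the other 7 had positive log2-Fold_Changes, of which 0 were called by DESeq2 or edgeR (4 at an unadjusted DESeq2 p under 0.05). The list summed to 6685 to 14843 in Control, with Control 3 lowest, and to 15009 to 22921 in IDPN. Dapl1 was lowest in Control 1, on 11 raw counts, where this sum was 14703, most of it from Dct (8222) and Pmel (3954). In the IDPN group Dapl1 and this sum were both highest in IDPN 3. Among 10 T cell markers, Cd8b1 was at 0 and only Lck had an adjusted p (30.4 and 60.8, DESeq2 adjusted p = 0.211), and the list summed to 26.7 to 57.0 in Control and 61.6 to 92.7 in IDPN. The part of pigment cells and T cells in the Dapl1 difference was not tested.

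**Figure D3:**
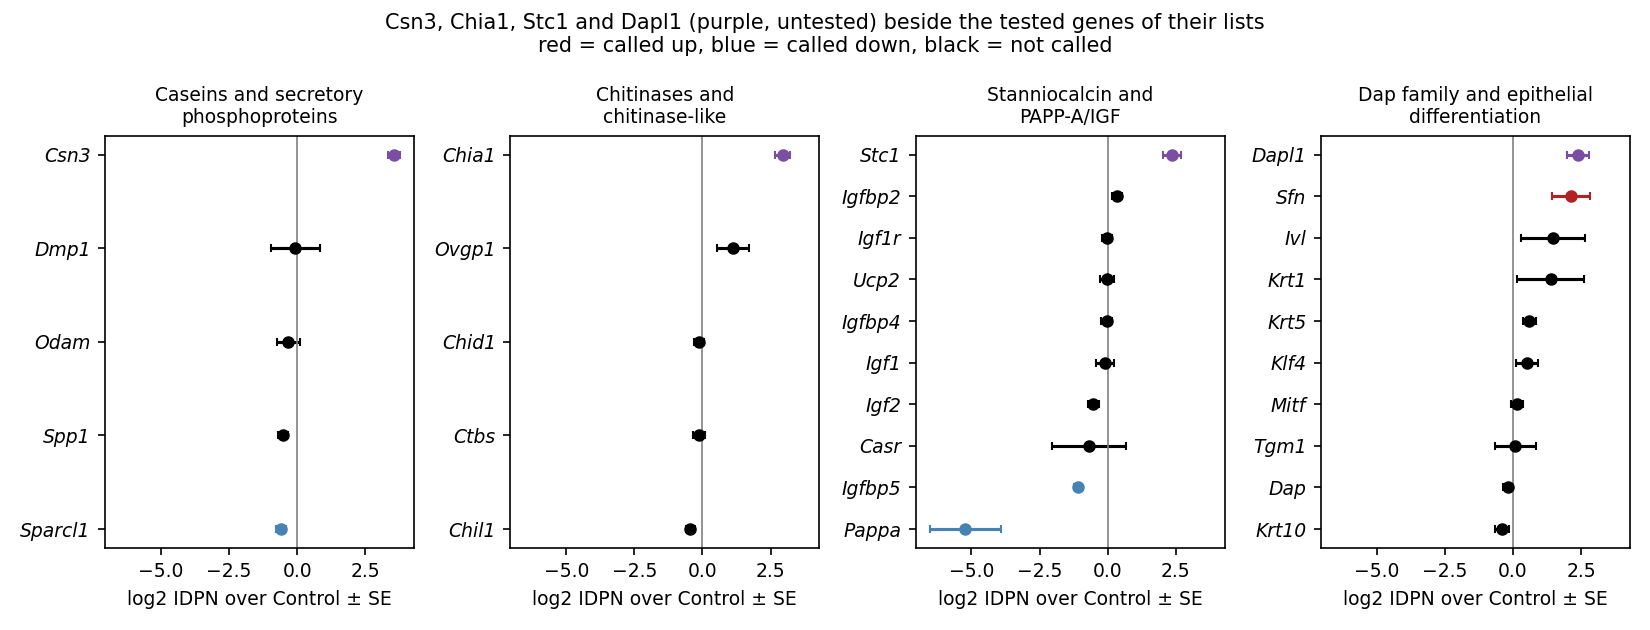
log2-Fold_Change (x axis, IDPN over Control, ± SE) of each of the 4 genes (purple, untested) beside those genes of 1 list that had an adjusted p (red upregulated, blue downregulated, black not called). Csn3 and Chia1 lie at 3.56 and 2.95 while the relatives shown beside them lie near or below 0 apart from Ovgp1 at 1.11, and Pappa and Igfbp5 lie on the opposite side from Stc1.

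The genes next to Csn3, Chia1 and Dapl1 along the chromosome were examined for a shared change over the surrounding 200 kb on each side. Around Csn3, 18 of 20 annotated genes were at 0 in all libraries, including Csn1s2a, Csn1s2b and the salivary genes Smr3a and Smr2, and only Odam had an adjusted p. The antisense gene 1700066N21Rik, which spans Csn3 without sharing exon bases with it, was among those at 0. The nearest genes that do not overlap Csn3 were BC037156, with 3.01 normalized counts in IDPN 2 and 0 elsewhere, and BC051076, at 0. Around Chia1, 8 of 17 genes had an adjusted p and the called gene, downregulated, was Pifo. It encodes a protein of primary cilium disassembly and fell from 1710 ± 148 to 741 ± 12.9 (SD, n = 3 each, log2-Fold_Change -1.21, SE 0.16, DESeq2 adjusted p = 1.15e-11). The nearest protein-coding genes on either side of Chia1 were its relatives Chil5 and Chil3, with Chil5 at means of 1.94 (Control) and 4.48 (IDPN) and Chil3 at 7.33 and 1.66. Next to Dapl1, Pkp4 (1614 and 1430.5, DESeq2 adjusted p = 0.671) and Tanc1 (793 and 753, 0.909) were not called.

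**Figure D4:**
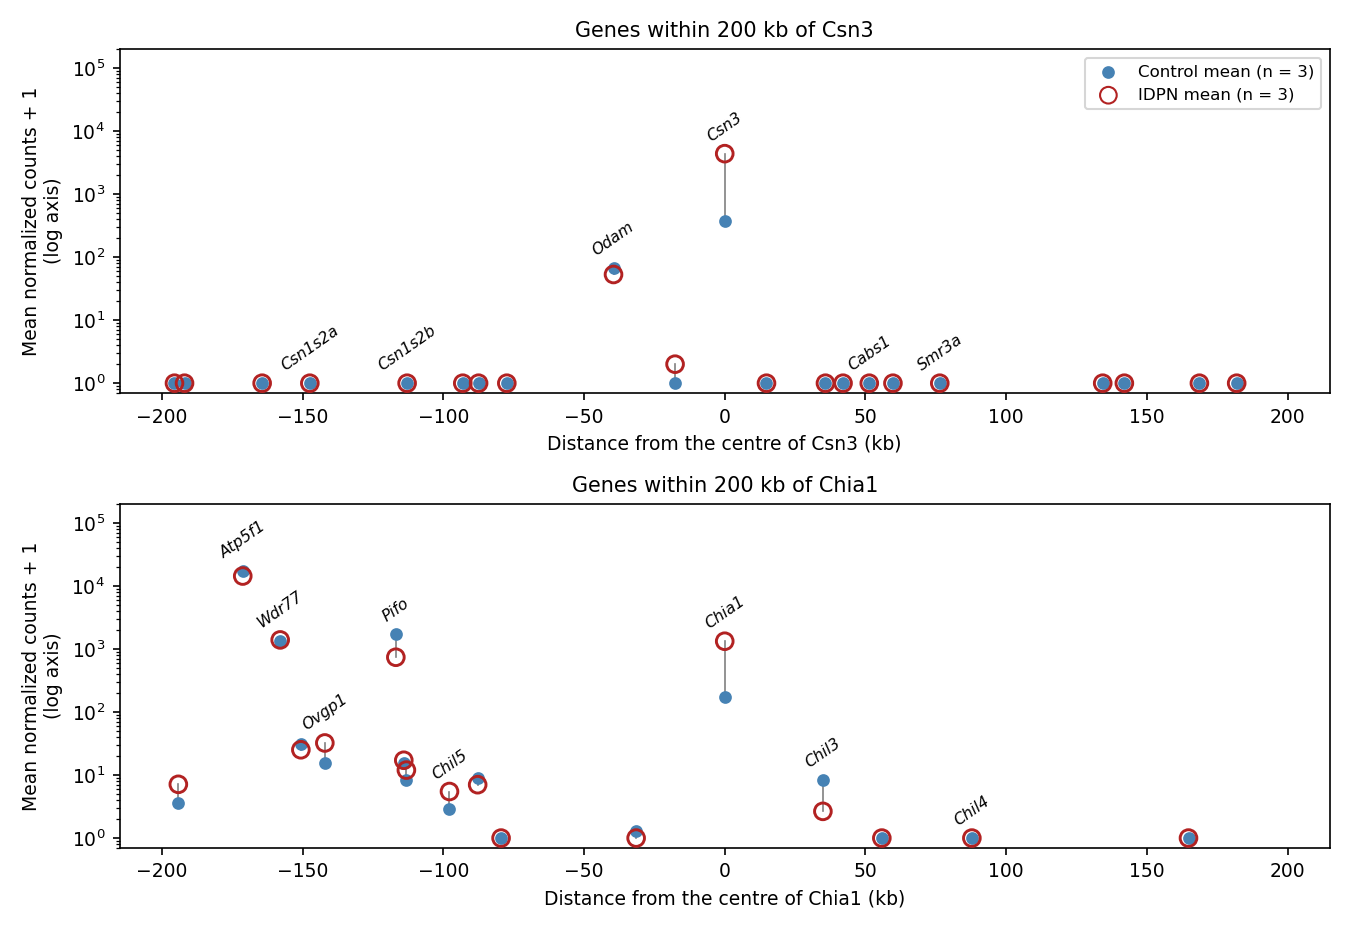
Mean normalized counts + 1 (y axis, log scale) in Control (blue) and IDPN (red circles) of the annotated genes within 200 kb of Csn3 and Chia1, placed by the distance of their centres (x axis, kb). Csn3 is the one gene above 100 in its window, and near Chia1 the genes Chil3, Chil4 and Chil5 stay below 10 while Pifo is lower in IDPN.

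Reads shared with other genes had little room to affect these values. Of the distinct stretches of 76 bases, the read length, in the annotated transcripts, none of those of Chia1 or Dapl1 and 0.0477% of those of Csn3 occurred in another gene. For Stc1 the share was 3.74%, all in the antisense gene Gm41192, which shares 229 exon bases with it and was at 0 in all libraries. The library protocol does not mark strand, so reads from Stc1 and that gene cannot be told apart in the shared bases.

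The tissue carried its own markers in every library. All 12 hair cell markers had an adjusted p, 9 were downregulated (8 with edgeR), and their sum was 27494 to 28398 in Control and 16764 to 18136 in IDPN. The 8 supporting cell markers summed to 160144 to 189769 and 118450 to 142094, with 0 called by DESeq2 or edgeR (3 lower at an unadjusted DESeq2 p under 0.05). Dark and transitional cell markers summed to 19905 to 32641 and 15752 to 21149 (0 of 6 called by DESeq2 or edgeR, 1 higher and 2 lower at an unadjusted DESeq2 p under 0.05). Stroma markers summed to 20506 to 39077 and 36118 to 38785 (1 of 7 upregulated, 0 with edgeR), Schwann cell and neuron markers to 100777 to 222008 and 86303 to 104866 (3 of 8 with an adjusted p downregulated, 2 with edgeR), and erythroid genes to 16167 to 36635 and 34689 to 49091 (4 of 5 upregulated, 0 with edgeR). The part of these cell types in the differences of Csn3, Chia1, Dapl1 and Stc1 was not tested.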

How the data were processed

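Per the labels and the methods of the study, the authors aligned paired reads with STAR 2.5.3a to GRCm38 and obtained expected counts per gene with RSEM 2.3.0 on a GENCODE annotation, from libraries made by a SMART-seq2 protocol (6 to 11 ng of RNA, 8 cycles of cDNA and 12 of library amplification) without molecular identifiers. Intervals and floors therefore cover counting error only. The deposited expected counts are whole numbers without normalization. Here they were tested with DESeq2 1.42.0 in R 4.3.3 (no covariate, independent filtering on, thresholds as in the study), and with edgeR 4.0.16 (quasi-likelihood, TMM, filterByExpr) as an alternative. P-values weigh the group difference against the variation between animals, which DESeq2 and edgeR estimate partly from other genes. Profiles used log2(normalized count + 1). Positions and transcript lengths came from GENCODE M21 on GRCm38, a later release than the authors' annotation. The genes and lists were chosen with earlier results of these data known. Named genes were these 4, the called genes and up to 4 others of highest mean in each pathway list, the 3 nearest profiles of each among genes of at least 100 mean normalized counts, the nearest genes on the chromosome, and those ranking beside the 4 by fold change. Other named genes, among them Elf5, Cebpb, Mrc1, Pifo and Prol1, were chosen after their values were seen, and some genes that the rule names are not reported here. The list symbol Muc10 was read as Prol1 through RefSeq synonyms, and Fdcsp was not matched. The code was tested on simulated counts. Alternative analyses changed the tool, the scaling, the low-count filter or the independent filtering, left out 1 library at a time, or used a pseudocount of 10 for the profiles.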

Additional observations from a re-analysis of the deposited data

How the results depend on the processing

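The log2-Fold_Changes of Csn3, Chia1, Dapl1 and Stc1 kept their sign and moved by less than the spread between replicates in all 40 values from 10 alternatives each, ranging from 3.38 to 3.77, 2.50 to 3.22, 1.99 to 2.75 and 2.08 to 2.71. Leaving out 1 of 3 libraries can hardly shift a group mean by more than that spread. For those values the limit therefore tests little, and the ranges are a description. The number of genes called was less stable. edgeR called 166 upregulated and 357 downregulated genes, and total-count scaling 214 downregulated genes. Without 1 library the upregulated genes numbered 234 to 611. Leaving out Control 1 gave 243, Control 2 gave 246, IDPN 2 gave 234 and IDPN 3 gave 265. In the casein and phosphoprotein list, 0 genes were downregulated with edgeR, 0 under total-count scaling and 0 with independent filtering off, and 0 to 2 without 1 library. In the lactogenic list, 1 gene was upregulated under total-count scaling, and without 1 library 0 to 1 were upregulated and 0 to 1 downregulated. In the hypoxia list, 1 to 2 were upregulated and 0 to 3 downregulated without 1 library. In the list of Dap and epithelial differentiation, 0 were upregulated with edgeR, 2 under total-count scaling, 0 with independent filtering off, and 0 to 1 without 1 library. The cause was not tested. The chitinase, type 2 and stanniocalcin lists kept their numbers of called genes within 1.5 times. A pseudocount of 10 left at least 2 of the 3 nearest profiles of each gene in place. No paired analysis was made, because each library came from a different animal that received either water or IDPN, and the labels pair none of them. Genes such as Stc2, Prlr and Chil3, with under 10 mean normalized counts, were too low for the depth to show modest changes.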
